A study of Mus musculus with 6 samples.

Results

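Solute carriers are membrane proteins that move nutrients, ions and metabolites across the plasma membrane and the membranes of organelles, and their genes are numbered by family and member. The genes described here are those whose symbol on the array platform is Slc, a family number, 1 letter and a member number, without Slc2a1 and Slc22a18. There were 144 such genes in 39 families, out of 8251 genes with a probe set of their own. They had 178 probe sets of the 12422 tested, and each gene was read from its brightest one by mean signal over all arrays. This rule uses no difference between the genotypes. Transcripts were measured on 1-colour Affymetrix arrays in mouse embryonic stem (ES) cells, which are pluripotent cells taken from early embryos. There were 3 wild-type samples and 3 samples carrying an HDAC1 knockout. HDAC1 is a histone deacetylase of several corepressor complexes, and the comparison asks which transcripts differ when it is missing. The cells received no treatment, and both genotypes came from the same litter. The culture protocol allowed either leukemia inhibitory factor on gelatin or feeder cell layers without the factor, and the labels do not say which sample had which. The labels call the 3 samples of each genotype biological replicates but do not say whether these were separate cell lines or cultures. Each p-value therefore reflects only how far these 6 samples varied, and some of that variation may be technical.

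The carriers fall into classes by what they carry. The SLC25 family sits mostly in the inner mitochondrial membrane and joins the matrix to the cytosol by exchanging nucleotides, phosphate, carboxylates and acylcarnitines. The SLC7 light chains, bound to an SLC3 heavy chain, and members of the SLC1, SLC6 and SLC38 families supply the cell with amino acids. ES cells use these in large amounts for growth. Other families carry sugars, metals, inorganic ions, organic acids, vitamins and fatty acids.

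The labels were checked on the targeted gene and on cell type markers. Hdac1 had signals of 2323, 2200 and 2408 in the wild-type arrays and 118, 110.1 and 197 in the knockout arrays, and the groups did not overlap (log2 difference -3.92 ± 0.19, adjusted p = 2.32e-06 by limma). All 12 ES cell markers measured were above the background level in both groups, and 6 of the 12 were higher in knockout cells. Of 24 measured markers of feeder fibroblasts, the other cell type these cultures could hold, 6 were lower by limma and 21 had a negative log2 difference. Lum, Postn, Pdgfrb and Loxl1 were at background in both groups. The summed signal of the fibroblast markers was 22398 to 24854 in wild-type and 16725 to 16971 in knockout arrays, and that of the ES cell markers 52547 to 56198 and 69607 to 71713. In bulk RNA, fewer cells of a type and less RNA per cell cannot be told apart, and the part of either list in the differences below was not tested. The Y-linked gene Eif2s3y was at background in all 3 knockout arrays and above it in all 3 wild-type arrays. The 3' to 5' signal ratio of beta-actin was 1.15 to 1.21 in wild-type and 1.04 to 1.09 in knockout arrays, without overlap, while that of Gapdh was 0.797 to 0.809 and 0.769 to 0.804, with overlap. The part of RNA quality in the results was not tested either. Array medians lay between 186.6 and 206.8.

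In HDAC1 knockout cells, 7 solute carrier genes were higher, 4 were lower and 133 had no call. The 7 were the mitochondrial carriers Slc25a5, Slc25a20, Slc25a4 and Slc25a39, the creatine transporter Slc6a8, the cationic amino acid transporter Slc7a3 and the phosphate transporter Slc20a1. The 4 were the amino acid exchanger light chain Slc7a7, the zinc transporter Slc39a7, the potassium-chloride cotransporter Slc12a4 and the fatty acid transport protein Slc27a2. A gene was called at an adjusted p under 0.05 by limma, with p-values adjusted over all 12422 probe sets. The 11 genes are 7.64% of the 144, where 3.88% of all probe sets (2.25% higher, 1.63% lower) and 4.58% of all genes (2.7% higher, 1.88% lower) were called. Among genes whose mean signal lay above the background level of 116.4, the shares were 12.4% (11 of 89) and 6.47%. All knockout arrays lay on the same side of all wild-type arrays for 29 of the 144 genes (20.1%), against 20.6% of all probe sets and 22.4% of all genes. At an unadjusted p under 0.05 stood 18.1% of the solute carrier genes and 17.1% of all genes, so by these last measures the family lay close to the background of the array.

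**Figure D1:**
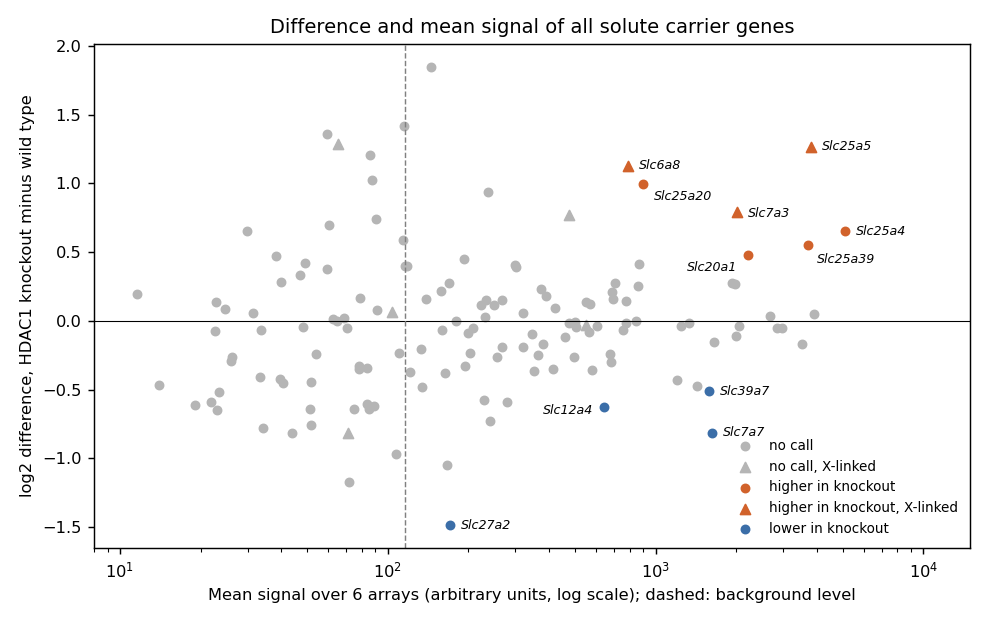
Each point is 1 solute carrier gene, placed by its mean signal over the 6 arrays (x axis, arbitrary units, log scale) and its log2 difference between HDAC1 knockout and wild type (y axis), with X-linked genes as triangles and the background signal as a dashed line. All 11 called genes lie to the right of the background level of 116.4, and the spread of the uncalled genes is widest to the left of it.

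**Figure D2:**
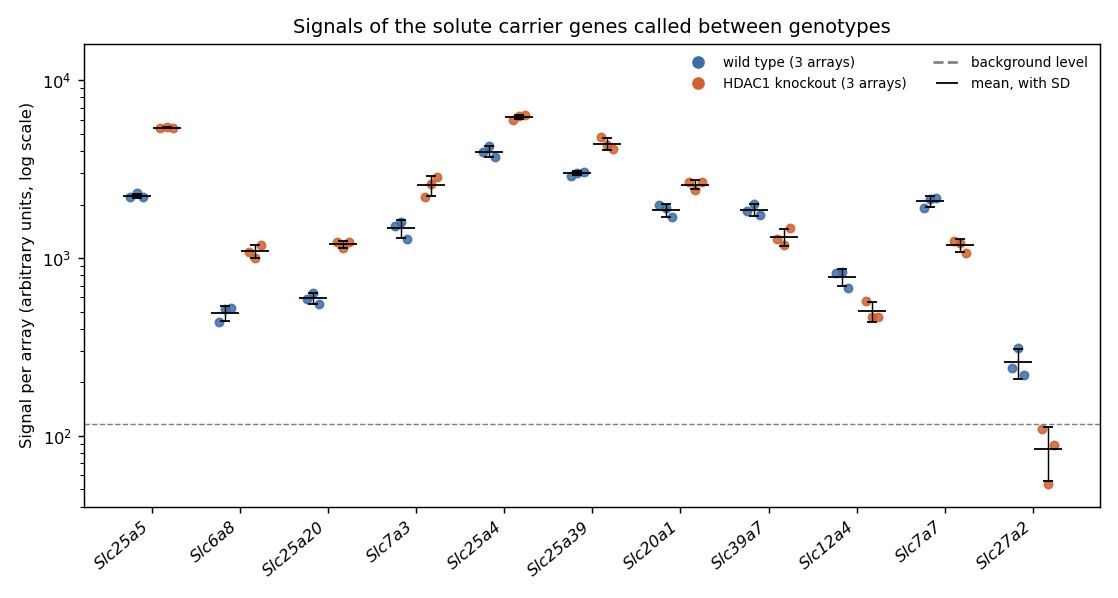
Signals of the 11 called genes are shown for each array (y axis, arbitrary units, log scale), with wild type in blue, HDAC1 knockout in orange, bars for the mean and SD of 3 arrays and the background level as a dashed line. The groups do not overlap for any of the 11, and the 3 knockout arrays of Slc27a2 alone lie under the background level. Heights of different genes are not comparable, since probe sets differ in brightness.

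The median log2 difference was -0.04 over the 144 genes, -0.04 over all genes and -0.04 over all probe sets, and 64 solute carrier genes had a positive and 80 a negative value. A mean at or under background in both groups was found for 48 of the 144 (33.3%, against 27.7% of all genes), and for those no fold is given. The precision followed the signal, as the median SE of a log2 difference was 0.19 for genes above background and 0.50 for the others. Of the 11 called genes, 3 differed by at least 2-fold. The calls of weaker genes depended on the variance model: without a trend of variance on signal, 3 solute carrier genes were called higher and 0 lower by limma (14 higher and 10 lower at an unadjusted p under 0.05), while over all probe sets 82 and 50 were called in place of 279 and 203. Centring each array on its median gave 8 higher and 1 lower.

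The SLC25 mitochondrial carriers held 4 of the 7 higher genes, and 0 of 20 measured were lower by limma, also at an unadjusted p under 0.05. Of all genes, 2.7% were called higher and 1.88% lower. Of X-linked genes, among them Slc25a5, 20.1% were called higher. The median log2 difference of the 20 SLC25 genes was 0.10, and 10 of the 17 above background had a positive value. The 4 called higher were both measured adenine nucleotide translocators, the carnitine-acylcarnitine translocase, and a carrier needed for glutathione import into mitochondria. The translocators Slc25a5 and Slc25a4 exchange ADP for ATP across the inner membrane. Slc25a5 was called on a family-type probe set, whose probes can also match Slc25a4, so these calls may not be separate. No other probe set of Slc25a5 was called. The promoters of these 4 genes are shown first, because they are the 4 members of 1 family that were called higher. Sequences are given as the strand of the gene read towards its transcription start. Each is the 250 bases before the annotated start, from RefSeq on GRCm38.p6. Slc25a5 is read from chrX:36795347-36795596 on the plus strand, Slc25a4 from chr8:46211063-46211312 on the minus strand, Slc25a20 from chr9:108661886-108662135 on the plus strand and Slc25a39 from chr11:102407518-102407767 on the minus strand. Capitals mark matches, on either strand, to the GC box GGGCGG and to the ETS core CCGGAAG.
Slc25a5: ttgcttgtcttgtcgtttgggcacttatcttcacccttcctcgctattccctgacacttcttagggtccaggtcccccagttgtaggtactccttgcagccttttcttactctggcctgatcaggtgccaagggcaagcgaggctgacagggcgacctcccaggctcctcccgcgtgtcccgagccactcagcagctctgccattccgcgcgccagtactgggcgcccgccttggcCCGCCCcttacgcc
Slc25a4: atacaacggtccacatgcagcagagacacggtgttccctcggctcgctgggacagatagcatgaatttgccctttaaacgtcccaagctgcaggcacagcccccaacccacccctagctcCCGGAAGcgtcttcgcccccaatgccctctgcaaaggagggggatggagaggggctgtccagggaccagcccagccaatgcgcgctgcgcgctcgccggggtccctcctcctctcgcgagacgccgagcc
Slc25a20: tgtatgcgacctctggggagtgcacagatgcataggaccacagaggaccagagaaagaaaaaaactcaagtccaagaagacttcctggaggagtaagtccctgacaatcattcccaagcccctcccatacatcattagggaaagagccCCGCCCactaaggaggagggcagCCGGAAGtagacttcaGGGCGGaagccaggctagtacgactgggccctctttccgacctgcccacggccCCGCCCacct
Slc25a39: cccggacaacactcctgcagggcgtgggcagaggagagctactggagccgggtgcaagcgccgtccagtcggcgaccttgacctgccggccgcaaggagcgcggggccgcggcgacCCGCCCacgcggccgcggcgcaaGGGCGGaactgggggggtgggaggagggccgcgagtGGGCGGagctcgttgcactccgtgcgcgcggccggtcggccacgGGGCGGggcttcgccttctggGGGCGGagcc

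The 4 windows differ in base composition. The window of Slc25a39 is 77.2% G and C with 35 CpG dinucleotides and 5 GC boxes, and that of Slc25a20 is 56.8% with 8 CpG and 3 GC boxes. Slc25a5 has 61.6% G and C, 14 CpG and 1 GC box, and Slc25a4 has 64.8%, 18 CpG and no GC box. An ETS core lies in the windows of Slc25a4 and Slc25a20. The TATA box letters TATAAA and the E-box letters CACGTG, also searched on both strands, match in none of the 4 windows. GC boxes are common in such windows: they are found in 52.8% of 8409 promoters of genes on the array, 55.7% of 167 promoters of solute carrier genes and 10 of 14 promoters of called ones. The ETS core is found in 11.3% and 10.2% of the first and second of these sets, the TATA box in 8.93% and 5.99%, and the E-box in 8.22% and 12%. RefSeq promoters were matched for 117 of the 144 genes and 9 of the 11 called. A gene with several annotated starts has several windows, so the promoters counted are not independent. Windows can overlap, and 1 GC box of Slc7a7 was counted in more than 1 window. A match is a run of letters and says nothing of binding.

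Slc25a5 encodes adenine nucleotide translocase 2, the isoform of dividing cells, and lies on the X chromosome. Its signals were 2193, 2307 and 2206 in the wild-type arrays and 5392, 5453 and 5365 in the knockout arrays. The 3 knockout values lay close together and all above the wild-type values. The means were 2236 ± 62.3 over the wild-type and 5403 ± 45.3 over the knockout arrays (SD, n = 3), 2.41-fold higher, with a log2 difference of 1.27 ± 0.07 (SE; 95% interval 1.11 to 1.43) and an adjusted p of 4.25e-06 by limma. It was called under all 18 alternative settings that could give it a value, with a log2 difference of 0.83 to 1.35. This probe set is of Affymetrix's family type, whose probes can match related transcripts, so signal from Slc25a5 and from Slc25a4 or other relatives cannot be told apart in it. The other 2 probe sets of the gene had no call. The next brightest had 587, 392 and 428 in wild-type and 381, 565 and 669.7 in knockout arrays, groups that overlap (log2 difference 0.18 ± 0.22, 95% interval -0.32 to 0.68, adjusted p = 0.797). The third had means of 32.5 and 86.8, both at background. The interval of the second probe set does not reach that of the first, so the size of the Slc25a5 difference depended on which probes were read.

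Slc25a4 encodes adenine nucleotide translocase 1, the isoform known from heart and muscle. Its signals were 3948, 4260.3 and 3689 in the wild-type arrays and 6013, 6327 and 6347 in the knockout arrays. The groups did not overlap, with means of 3966 ± 286 over the wild-type and 6229 ± 188 over the knockout arrays (SD, n = 3). Slc25a4 was 1.57-fold higher, with a log2 difference of 0.65 ± 0.08 (95% interval 0.47 to 0.83, adjusted p = 0.00106). It had 1 probe set, with no family suffix, and kept its call in all 6 fits that left out an array. Without the variance trend its adjusted p was 0.112.

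**Figure D3:**
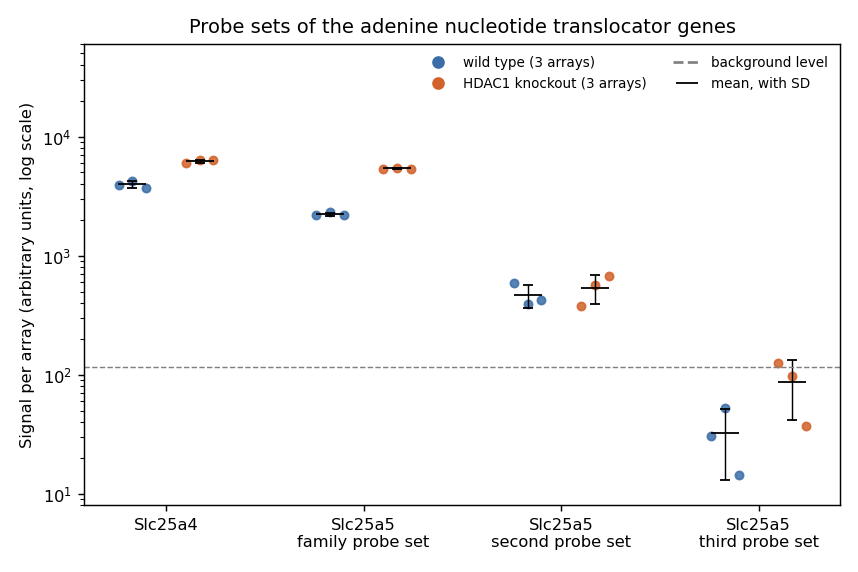
Signals in each array (y axis, arbitrary units, log scale) are shown for the probe sets of the adenine nucleotide translocator genes Slc25a4 and Slc25a5, with wild-type and HDAC1 knockout arrays as separate points. The groups are apart for Slc25a4 and for the family-type probe set of Slc25a5, and overlap for the probe set of Slc25a5 with means of 469 and 539.

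Slc25a20, the carnitine-acylcarnitine translocase, carries fatty acyl groups into the matrix for oxidation. Its signals were 589, 639.5 and 552 in the wild-type arrays and 1228, 1137 and 1229 in the knockout arrays. Every knockout value was well above the highest wild-type value. The means were 593 ± 44.1 over the wild-type and 1198 ± 52.9 over the knockout arrays (SD, n = 3), 1.99-fold higher (log2 difference 0.996 ± 0.11, 95% interval 0.75 to 1.24, adjusted p = 0.000551). It was the one autosomal solute carrier gene called under every alternative that was run, 19 of 19, with adjusted p-values of 0.000296 to 0.0372.

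Slc25a39, which is needed for the uptake of glutathione into mitochondria, had signals of 2912, 3008 and 3062 in the wild-type arrays and 4769.6, 4319.9 and 4106 in the knockout arrays. The lowest knockout value was above the highest wild-type value, and the wild-type arrays varied less than the knockout arrays. The means were 2994 ± 76 over the wild-type and 4398 ± 339 over the knockout arrays (SD, n = 3), 1.46-fold higher (log2 difference 0.55 ± 0.08, adjusted p = 0.00357). Without the variance trend its adjusted p was 0.167.

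The other 16 carriers of the family had no call. Slc25a1, the citrate carrier that exports citrate for lipid synthesis, had 1720.4, 1741 and 1910.2 in the wild-type arrays and 2049.7, 2202 and 2222 in the knockout arrays, groups that did not overlap (log2 difference 0.27 ± 0.08, adjusted p = 0.138). Its second probe set had a log2 difference of 0.22 with overlapping groups (adjusted p = 0.637). Slc25a11, the oxoglutarate-malate carrier, had a log2 difference of -0.02 ± 0.11, with an interval of -0.26 to 0.23. Slc25a3, the mitochondrial phosphate carrier, had -0.19 ± 0.26, with an interval of -0.78 to 0.39. The X-linked carriers Slc25a14 and Slc25a53 were at background in both groups, with log2 differences of 1.29 ± 0.53 and -0.81 ± 0.44.

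**Figure D4:**
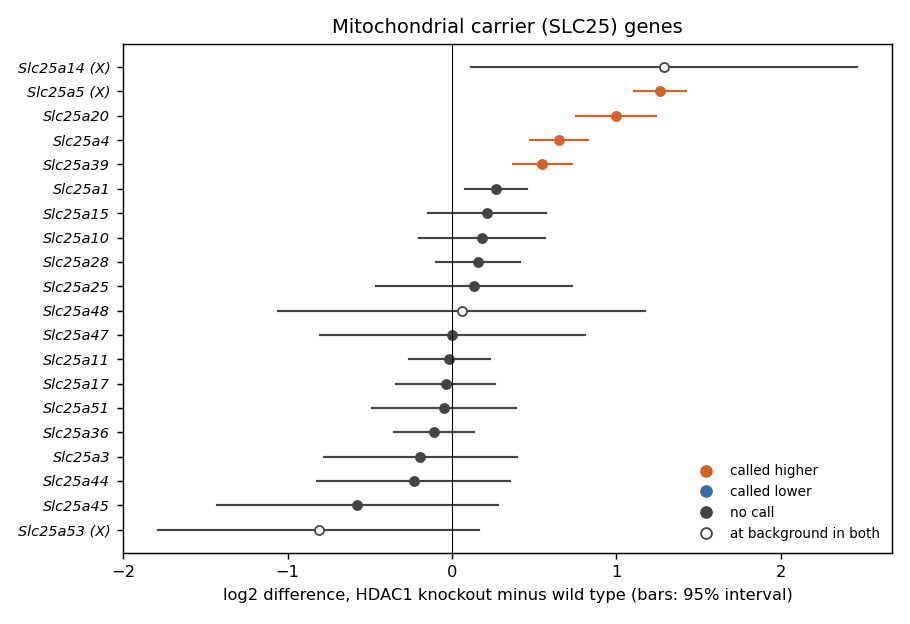
Log2 differences between HDAC1 knockout and wild type (x axis) are shown for the 20 SLC25 genes, with 95% intervals from limma as bars, open points for genes at background in both groups and (X) after X-linked genes. The intervals of Slc25a5, Slc25a20, Slc25a4 and Slc25a39 lie to the right of 0, and that of Slc25a1 does too, at 0.08 to 0.46, without a call after adjustment.

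Among 30 genes for amino acids and related solutes, a class set by family number, 2 were higher and 1 was lower by limma. Of all genes, 2.7% were called higher and 1.88% lower. The 2 higher genes are X-linked, and 20.1% of all X-linked genes were called higher. At background in both groups were 7 of the 30, and the median log2 difference was -0.06. Slc6a8, the X-linked creatine transporter, had 438, 513 and 520.3 in the wild-type arrays and 1083, 999.9 and 1190.2 in the knockout arrays. All knockout values were above all wild-type values, at means of 491 ± 45.6 over the wild-type and 1091 ± 95.4 over the knockout arrays (SD, n = 3). The difference was 2.19-fold (log2 1.13 ± 0.13, 95% interval 0.85 to 1.41, adjusted p = 0.000576 by limma). Its second probe set was at background in both groups, and the mean of both probe sets gave a log2 difference of 0.66 with an adjusted p of 0.468.

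Slc7a3 encodes a cationic amino acid transporter, which brings in arginine and lysine, and is also X-linked. Its signals were 1521, 1602 and 1280.1 in the wild-type arrays and 2201, 2611 and 2866 in the knockout arrays. The groups did not overlap, although the knockout arrays spread more widely than the wild-type arrays. The means were 1468 ± 168 over the wild-type and 2559 ± 335 over the knockout arrays (SD, n = 3), 1.73-fold higher (log2 difference 0.79 ± 0.12, adjusted p = 0.00401), with an adjusted p of 0.13 without the variance trend. The other cationic transporters measured had no call. Slc7a1 was at background in both groups, and Slc7a2, at 186 ± 48.3 over the wild-type and 141 ± 48.6 over the knockout arrays, had a log2 difference of -0.38 ± 0.36 (adjusted p = 0.705).

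Slc7a7, the light chain that exchanges cationic for neutral amino acids when bound to Slc3a2, was lower. Its signals were 1915, 2161 and 2174 in the wild-type arrays and 1248, 1222 and 1069.9 in the knockout arrays. Every knockout value lay below every wild-type value, at means of 2083 ± 146 over the wild-type and 1180.0 ± 96.3 over the knockout arrays (SD, n = 3). It was 1.76-fold lower (log2 difference -0.81 ± 0.10, 95% interval -1.03 to -0.59, adjusted p = 0.000998). The call held in all 6 fits that left out an array and was lost without the variance trend (adjusted p = 0.0751). Its heavy chain Slc3a2 had 3671, 3328 and 4246 in the wild-type arrays and 3143, 3535 and 3277 in the knockout arrays, groups that overlap (log2 difference -0.17 ± 0.10, 95% interval -0.39 to 0.05, adjusted p = 0.48). Slc7a5, the leucine-transporting light chain of the same heavy chain, had 2501, 2987 and 3193 in the wild-type arrays and 2994, 2718 and 2637 in the knockout arrays (log2 difference -0.05 ± 0.10, 95% interval -0.28 to 0.18). The difference between Slc7a7 and these chains was not itself tested. Of the remaining chains, Slc7a8 and Slc7a11 were at background in both groups, Slc7a6 and Slc7a9 had adjusted p-values of 0.977 and 0.925, and the heavy chain Slc3a1 had 0.747.

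Several neutral amino acid transporters stood just outside the threshold. Slc38a2, a sodium-coupled transporter of small neutral amino acids, had 1681, 1921 and 1405 in the wild-type arrays and 1129.7, 1194 and 1239.6 in the knockout arrays. The knockout values were all below the wild-type values (log2 difference -0.47 ± 0.12, adjusted p = 0.0558), and it was called under 6 of 19 alternatives. Slc38a5, an X-linked relative that carries glutamine among others, had 277, 425 and 345 in the wild-type arrays and 670.2, 646 and 493 in the knockout arrays (log2 difference 0.77 ± 0.20, adjusted p = 0.0611), and was called under 4 of 18. Slc1a5, the exchanger of glutamine and other neutral amino acids, had 156, 127 and 195 in the wild-type arrays and 310.3, 345 and 292 in the knockout arrays (log2 difference 0.94 ± 0.26, adjusted p = 0.0861), and was called under 2 of 19. For Slc38a5 and Slc1a5 all knockout values were above all wild-type values. Slc38a4, another member of the family, had a log2 difference of 0.04 ± 0.08, with a narrow interval of -0.15 to 0.22. Slc6a18, a neutral amino acid transporter known from kidney, had a wild-type mean at background and was at least 1.40-fold higher without a call (adjusted p = 0.114).

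**Figure D5:**
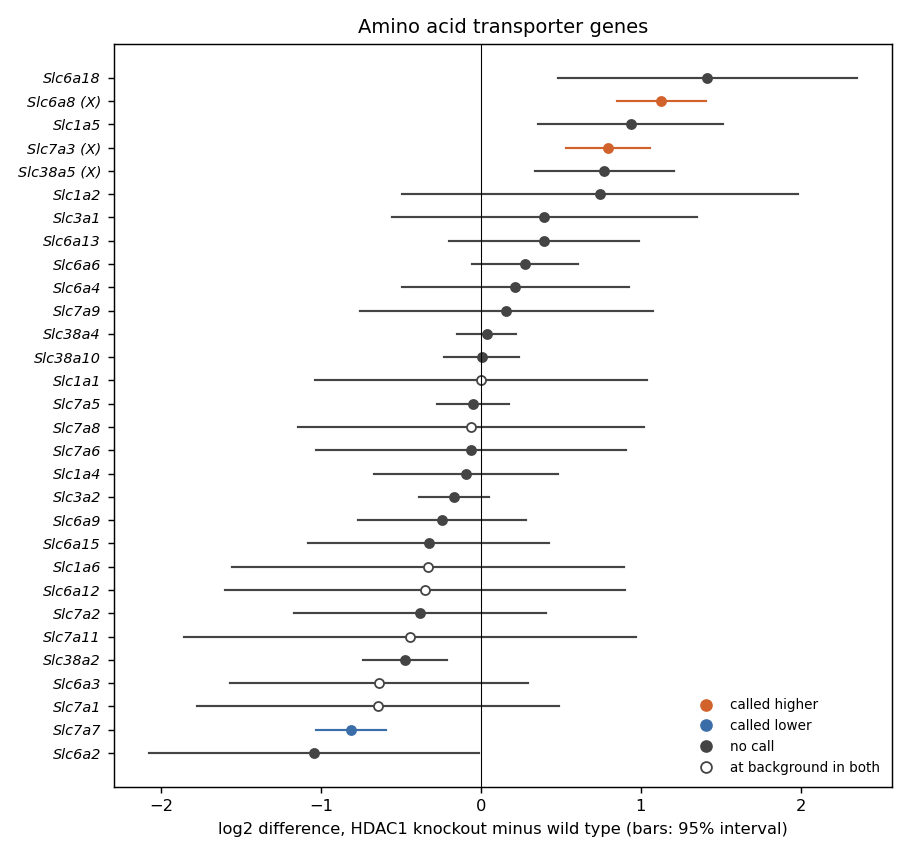
Log2 differences between HDAC1 knockout and wild type (x axis) are shown for the 30 genes for amino acids and related solutes. The class was set by family number. Bars are 95% intervals from limma, open points are genes at background in both groups, and (X) follows X-linked genes. Slc6a8 and Slc7a3 lie to the right of 0 and Slc7a7 to the left, while the interval of Slc3a2, the heavy chain that Slc7a7 binds, is -0.39 to 0.05.

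Among 20 genes for inorganic ions and pH, 1 was higher and 1 lower by limma, against 2.7% and 1.88% of all genes. At background in both groups were 10 of the 20. Slc20a1, a sodium-phosphate cotransporter of the plasma membrane, had 1976, 1903 and 1694 in the wild-type arrays and 2684, 2424 and 2666 in the knockout arrays. The groups did not overlap, with means of 1858 ± 146 over the wild-type and 2591 ± 145 over the knockout arrays (SD, n = 3), and the gene was 1.39-fold higher (log2 difference 0.48 ± 0.09, adjusted p = 0.0144 by limma). The call was lost without HDAC1 knockout replicate 1 (adjusted p = 0.0614) or replicate 3 (0.0736), and without the variance trend (0.229). Slc12a4, a potassium-chloride cotransporter that lets cells shed volume, had 828, 839 and 679 in the wild-type arrays and 575, 467 and 464 in the knockout arrays. Its knockout values were all below its wild-type values, 1.54-fold lower (log2 difference -0.62 ± 0.15, adjusted p = 0.042). Among the settings that ended that call were the fits without wild type replicate 1 (0.139) or 2 (0.14), HDAC1 knockout replicate 2 (0.152) or 3 (0.15), and those with median centring (0.0896), robust eBayes (0.0509) or no variance trend (0.204). Its relative Slc12a7 had 804, 834 and 601 in the wild-type arrays and 869, 989 and 1122 in the knockout arrays, higher in all knockout arrays (log2 difference 0.41 ± 0.15, adjusted p = 0.209). Slc12a2, the sodium-potassium-chloride cotransporter that takes ions in, had a log2 difference of -0.01 ± 0.11 (95% interval -0.26 to 0.23). Slc4a4 and Slc4a5, bicarbonate cotransporters, had unadjusted p-values of 0.0371 and 0.0428 but were at background in both groups.

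Of 16 metal ion transporters, 1 was lower and 0 were higher by limma, against 1.88% and 2.7% of all genes. At an unadjusted p under 0.05 stood 3 of them: Slc39a7 and Slc39a4, lower, and Slc11a1, higher. Slc39a7, which releases zinc from the endoplasmic reticulum and Golgi, had 1845, 2020.2 and 1742 in the wild-type arrays and 1286, 1176 and 1467 in the knockout arrays. The knockout values were all below the wild-type values, at means of 1869 ± 141 over the wild-type and 1309.7 ± 147 over the knockout arrays (SD, n = 3). It was 1.42-fold lower (log2 difference -0.51 ± 0.11, adjusted p = 0.0242). Among the settings that ended the call were the fits without wild type replicate 1 (0.0763) or 2 (0.0926), HDAC1 knockout replicate 1 (0.0797) or 2 (0.111), and those with median centring (0.09) or no variance trend (0.239). Of the 7 zinc uptake genes of the SLC39 family, 5 had a negative log2 difference. These 5 include the 2 genes at background in both groups, Slc39a3 and Slc39a8. The median of the 7, -0.42, is the value of Slc39a3 and so that of a gene at background. Slc39a4, a zinc importer of the plasma membrane, had -0.43 ± 0.16 (adjusted p = 0.231), but its second probe set had 0.26 with the opposite sign (adjusted p = 0.444). The 5 zinc efflux genes of the SLC30 family had a median of -0.15, and 0 of the 5 were called by limma or had an unadjusted p under 0.05. Slc11a1, a metal transporter of phagosomes, had a wild-type mean at background and an adjusted p of 0.25.

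Among 17 genes for nucleosides, vitamins, peptides and lipids, 1 was lower and 0 were higher by limma, against 1.88% and 2.7% of all genes. At an unadjusted p under 0.05 stood 2 of them: Slc27a2, lower, and Slc27a3, higher. Slc27a2 encodes a fatty acid transport protein that also activates very long-chain fatty acids. Its signals were 241, 314 and 220.0 in the wild-type arrays and 109.8, 53.6 and 88.3 in the knockout arrays. All 3 knockout values were at background and all 3 wild-type values above it, so it was at least 2.05-fold lower (log2 difference -1.48 ± 0.36, 95% interval -2.28 to -0.69, adjusted p = 0.0499). It stood at the edge of the threshold: the call was lost in all 6 fits that left out an array, with adjusted p-values of 0.0708 to 0.184, and held under 6 of 18 alternatives in all. Slc27a3, of the same family, had its knockout values above its wild-type values, with 47.7, 107 and 23 in the wild-type arrays and 193, 293 and 206 in the knockout arrays. All 3 wild-type values were at background, and it was at least 1.83-fold higher without a call (log2 difference 1.85 ± 0.48, adjusted p = 0.0657). Slc29a1, the equilibrative nucleoside transporter of the plasma membrane, had a log2 difference of -0.05 ± 0.09 (95% interval -0.24 to 0.14).

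The classes for sugars and nucleotide sugars, for organic ions and carboxylates, and for vesicles and lysosomes had 0 called genes by limma. Over all genes, 4.58% were called. Of the 20 genes in the sugar class, also set by family number, 7 were at background in both groups and 2 had an unadjusted p under 0.05. These were Slc35b2, the Golgi transporter of the sulfate donor for glycan sulfation (log2 difference -0.35 ± 0.14, adjusted p = 0.272), and Slc35e4 (-0.73 ± 0.30, adjusted p = 0.272). Both had all knockout values below all wild-type values. The glucose transporter Slc2a3 had a log2 difference of 0.05 ± 0.12 (95% interval -0.21 to 0.31), and its second probe set one of 0.27 with groups that did not overlap (adjusted p = 0.131). Of the 16 genes for organic ions, 9 were at background in both groups and 0 had an unadjusted p under 0.05, the smallest p being that of the steroid sulfate transporter Slc10a6 (adjusted p = 0.327). All 3 genes of the class for vesicles and lysosomes, which was set by family number and not by each gene's own site, were at background in both groups. Among them Slc17a1 had the smallest p (adjusted p = 0.853).

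For 27 genes without a call and above background in both groups, the 95% interval lay within 1.5-fold in either direction. These bound the difference for the brightest probe set in the fit with the variance trend, which a missed threshold alone does not. Examples, chosen after their values were seen, are Slc35b1, a nucleotide transporter of the endoplasmic reticulum (-0.03 ± 0.08, interval -0.22 to 0.16), and Slc38a10 (0.00 ± 0.11, interval -0.23 to 0.24). The second probe set of Slc25a51, among the 27, had -0.45 with groups that did not overlap. Its interval of -0.94 to 0.04 reaches past 1.5-fold. Of the 11 called genes, 9 had 1 probe set and so no second reading. Over all members, 13 had 2 or more probe sets above background, 8 of them with the same sign, and 0 of the 34 other probe sets were called by limma, with 3 at an unadjusted p under 0.05.

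The X chromosome held 8 of the 144 genes, and 3 of the 8 were higher (37.5%): Slc25a5, Slc6a8 and Slc7a3. Of all 259 X-linked genes measured, 20.1% were higher and 2.32% lower, against 2.14% and 1.86% of genes elsewhere. The median log2 difference was 0.78 over the 8 X-linked members, 0.23 over all X-linked genes and -0.04 over autosomal genes. A Y-linked transcript was at background in all knockout arrays and above it in all wild-type arrays. The loss of HDAC1 and the sex chromosomes of the cells therefore cannot be told apart, for the X-linked or for the autosomal genes. The other X-linked members had no call: Slc38a5, Slc25a14 and Slc25a53 with the values already given, Slc10a3 with a log2 difference of -0.03 ± 0.14 and Slc35a2 at background in both groups. Away from the X chromosome, 4 of 136 solute carrier genes were higher and 4 lower (2.94% each). Of other membrane transport genes, which were taken by symbol (Slco, Abc, aquaporin and cation pump genes), 1 of 44 was higher and 0 lower by limma (2.27% called, 3 at an unadjusted p under 0.05), and 13 were at background in both groups. The gene that was higher, Abcc5, an exporter of cyclic nucleotides, had 557, 599.7 and 681 in the wild-type arrays and 1023, 970.4 and 916 in the knockout arrays (1.57-fold, log2 difference 0.65 ± 0.12, adjusted p = 0.013). Its call was lost without wild type replicate 1 (0.0509), HDAC1 knockout replicate 1 (0.0662) or 2 (0.0654), and without the variance trend (0.136).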

How the data were processed

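RNA of 6 mouse ES cell samples, 3 per genotype, was biotin-labelled and read on Affymetrix arrays. The authors deposited a linear intensity for each probe set. MAS5 produced it, per the submitters' processing notes, in a version not given in the sources used here. After trimming 2% at either end, each array had a mean of 500.3, so an overall shift of all transcripts cannot be seen. Experiment headers of the 6 arrays were identical, so they cannot show whether there were batches.

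The analysis ran in R 4.3.3 with limma 3.58.1 on log2(signal + 16), using lmFit and then eBayes with its trend option, knockout minus wild type, with Benjamini-Hochberg adjustment over 12422 probe sets after leaving out 66 controls. Folds are on this scale and so understate differences of dim probe sets, and adjusted p-values are limma's. The background level, 116.4, was the 95th percentile of the 19 controls that target bacterial or yeast RNA. Where all arrays or the mean of 1 group lay at or under it, arrays under it were set to it and the fold is "at least"; with both groups there, none is given. SDs are over 3 arrays, and the number of arrays limits the precision. Gene names came from the platform annotation, and all 144 members matched a RefSeq table of GRCm38.p6. Classes were set by family number, and Slc48a1 and Slc66a2 are in none.

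The members and lists were chosen with earlier results of these data known. Named are all called members, those with the smallest p up to 25, the member with the smallest p in each class, the heteromeric and cationic amino acid transporter chains, X-linked members, Hdac1 and called genes of other transporters. Members outside this rule are examples chosen after their values were seen. Alternatives were median centring, quantile normalization, pseudocounts of 1 and 64, filters on dim probe sets (25% and 50%), eBayes without a trend or robust, a block for the replicate number, array weights, the omission of each array in turn, 1 probe set per gene, the mean of a gene's probe sets, and the omission of genes on the X and Y chromosomes. The scripts were tested on simulated data.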

Additional observations from a re-analysis of the deposited data

How the results depend on the processing

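Of the 7 higher solute carrier genes, 3 were called higher without a variance trend and 4 without X-linked and Y-linked genes, the latter because 3 of the 7 are X-linked and were not in that fit. Leaving out 1 array gave 6 to 9 higher, and the other alternatives 7 to 10. The 4 lower calls were less stable. Counted over all members, 1 gene was called lower with median centring, 0 without a trend and 1 with the replicate block. Leaving out 1 array gave 1 to 4, with 1 without wild type replicate 1, wild type replicate 2 or HDAC1 knockout replicate 2. These counts can include genes outside the 4. Slc27a2 lost its call in all 6 fits that left out an array. Slc38a2, not called in the main fit, was called lower under 6 of 19 alternatives, among them the fit without wild type replicate 3. The other alternatives gave 3 to 5. The cause was not tested. The median log2 difference was -0.04, and 0.04 with median centring, which moved that of all probe sets from -0.04 to 0.04 as well. That centring changed the calls over all probe sets from 279 higher and 203 lower to 344 and 129, a higher share of 72.7% in place of 57.9%. No pairing by replicate number was visible, as same-numbered arrays had deviations correlated at -0.05, -0.01 and -0.08. Arrays with different numbers had -0.03 to 0.08. With 3 arrays per group this cannot show whether the samples were paired in the design. The replicate block gave 7 higher and 1 lower solute carrier genes, ending the calls of Slc39a7 (adjusted p = 0.0732), Slc12a4 (0.0743) and Slc27a2 (0.111) by limma, and 200 higher and 119 lower probe sets. No result changed sign while called. Differences of dim genes, with a median SE of 0.50, were the least well measured.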
